A study of Homo sapiens with 8 samples.

Results

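Metallothioneins are small cysteine-rich proteins that bind zinc, copper and cadmium, and cells raise their transcripts when free metal rises. The 9 genes described here, MT1A, MT1E, MT1F, MT1G, MT1H, MT1M, MT1X, MT2A and MT3, were chosen by gene symbol. Earlier results of these data were known when the choice was made. These genes make up 9 of the 18508 genes measured. Expression was measured on Clariom S human microarrays in ASC52telo, a line of ADSCs (adipose-derived stem cells) that had been made immortal with the telomerase gene hTERT. All cultures had gone through 24 h of serum deprivation, and all carried the hTERT transgene. The SAHA group had 3 arrays, from cells given 1000 nM SAHA for 72 h. SAHA (vorinostat) is a hydroxamic acid that blocks histone deacetylases (HDACs), enzymes that take acetyl groups off histone tails. The EtOH group, given the solvent of SAHA, had 2 arrays, since the authors left 1 EtOH array out for low intensity, and the untreated group had 3. The treated cells then had 24 h in fresh medium, as the study's methods give it, so the arrays did not sample the cells at the end of exposure. The arrays carry the numbers 1, 2 and 3 as biological replicates of 1 cell line, and no EtOH array with the number 2 was left. The p-values measure the spread left between these arrays once the values had been centred on the replicate number, as described below. They do not measure the spread between donors.

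The MT1 and MT2A genes lie side by side on chromosome 16 and are copies of each other with closely similar sequences. The factor MTF1 binds short metal response elements in their promoters when zinc is high, and glucocorticoids raise several of them through the glucocorticoid receptor. MT3, first known as growth inhibitory factor, is best known from the brain. In the RefSeq gene order of GRCh38.p14, 13 metallothionein symbols of the arrays formed a run on chromosome 16: MT4, MT3, MT2A, MT1L, MT1E, MT1M, MT1A, MT1B, MT1F, MT1G, MT1H, MT1IP and MT1X. All 9 genes chosen lay in this run. The probe sequences were not analysed here, and how far the values of near-identical copies share signal was not tested.

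Promoter sequence shows the shared metal response elements most directly. Sequences were at hand for 3 of the 9 genes, MT2A, MT1H and MT1X. The lines give the 250 bases before each RefSeq start in GRCh38.p14, 5′ to 3′. Capitals mark the core of the metal response element, searched as TGCACNC and as TGCGCNC on both strands, with overlapping matches counted.

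MT2A promoter, chr16:56608334-56608583, + strand: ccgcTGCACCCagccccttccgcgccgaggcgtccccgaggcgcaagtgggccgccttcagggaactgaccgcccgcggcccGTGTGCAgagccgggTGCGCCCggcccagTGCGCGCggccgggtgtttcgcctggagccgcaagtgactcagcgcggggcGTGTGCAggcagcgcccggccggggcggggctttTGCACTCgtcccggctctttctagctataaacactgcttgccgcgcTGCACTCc
MT1H promoter, chr16:56669564-56669813, + strand: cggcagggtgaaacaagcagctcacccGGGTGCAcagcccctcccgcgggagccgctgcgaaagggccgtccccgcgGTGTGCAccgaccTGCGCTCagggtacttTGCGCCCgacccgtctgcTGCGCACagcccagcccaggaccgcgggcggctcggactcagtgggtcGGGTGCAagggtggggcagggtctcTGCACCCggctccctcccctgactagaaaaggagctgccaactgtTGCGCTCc
MT1X promoter, chr16:56682220-56682469, + strand: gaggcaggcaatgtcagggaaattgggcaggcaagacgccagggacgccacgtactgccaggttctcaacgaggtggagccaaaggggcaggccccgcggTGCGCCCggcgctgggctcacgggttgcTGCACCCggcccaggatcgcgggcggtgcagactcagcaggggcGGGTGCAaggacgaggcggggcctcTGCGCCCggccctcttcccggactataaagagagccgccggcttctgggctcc

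The MT1H promoter held 8 such cores, that of MT2A held 7 and that of MT1X held 4. Of 35116 promoter windows of the same length, 24.8% held at least 1 core, 0.37% at least 4, 0.0313% at least 7 and 0.0171% at least 8. Counted from the start site, a core began at -53 in MT1H and in MT1X and at -54 in MT2A. GC content was 73.2% in MT2A, 70.4% in MT1H and 70.0% in MT1X. These matches describe the letters of the windows and say nothing of binding.

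The arrays differed little in scale, with array medians between 0.26 and 0.33 on the log2 scale of the deposited values. In every gene the mean of the arrays with replicate number 1, that of number 2 and that of number 3 were equal to within 1e-10, so the deposited values had been centred on the replicate number. In replicate 2, which holds 1 untreated and 1 SAHA array, this makes the pair mirror each other around the common mean, and whether one of them was low or the other high cannot be told apart. All 7 stem cell markers listed lay above the upper quartile of gene means. Below the median lay 4 of 4 adipocyte markers, 4 of 4 epithelial markers, 4 of 5 blood cell markers and 2 of 4 endothelial markers, and no marker on these lists passed the test with SAHA. A gene was called at an adjusted p under 0.05 (limma, Benjamini-Hochberg over all genes) and a fold of at least 1.5. SAHA against the combined EtOH and untreated arrays gave 81 genes called higher, 0.438% of those tested, and 55 called lower, 0.297%. The counts became 99 and 37 after median centring of the arrays. The centring on the replicate number had removed the spread between these numbers before any fit. The main fit still counts 6 residual degrees of freedom, and a fit with the replicate number as a block counts 4. Without the block, standard errors and unadjusted p-values can be too small and intervals too narrow. For MT3 the standard error was 0.116 without the block and 0.153 with it.

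None of the 9 metallothionein genes was called higher or lower with SAHA. At an unadjusted p under 0.05, 1 of the 9 passed, against 15.4% of all genes. Differences were negative in 6 and positive in 3, and their median was -0.12 on the log2 scale, beside -0.03 over all genes. The methods' t-test also called none of them after Benjamini-Hochberg adjustment. Since these are whole cultures, fewer cells of a kind and less RNA per cell cannot be told apart.

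**Figure D1:**
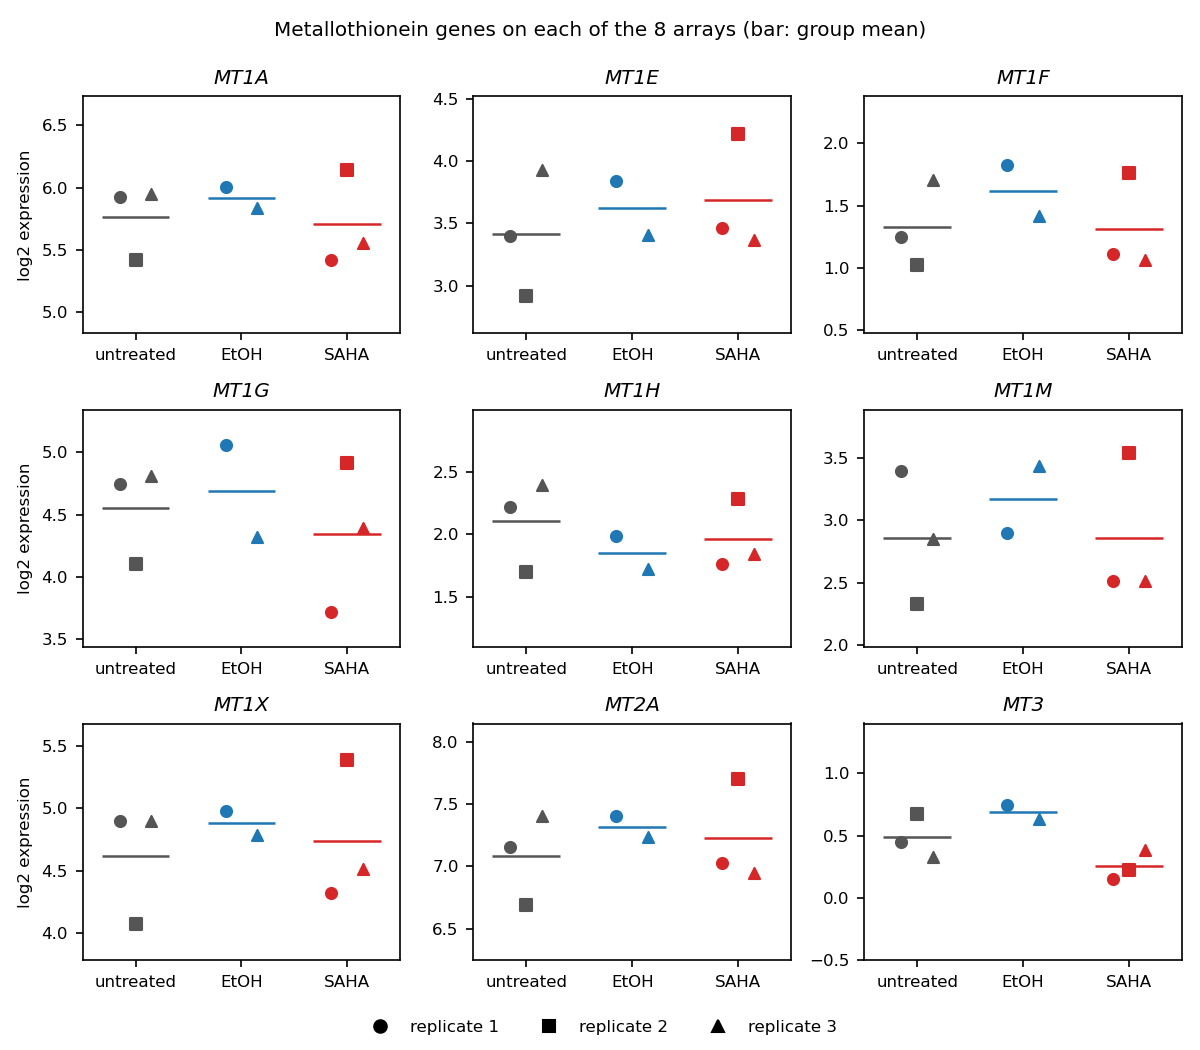
Log2 expression (vertical axis) of the 9 metallothionein genes, 1 panel each, on 3 untreated, 2 EtOH and 3 SAHA arrays, with the symbol giving the replicate number and the bar the group mean. In 8 panels the SAHA arrays spread across the control arrays. Those of MT3 reach from 0.15 to 0.39, and 1 control array, at 0.33, lies among them.

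MT2A, the isoform known for its broad expression across tissues, measured 7.16, 6.69 and 7.41 log2 units on untreated arrays 1, 2 and 3, 7.40 and 7.24 on EtOH arrays 1 and 3, and 7.03, 7.70 and 6.94 on SAHA arrays 1, 2 and 3. SAHA 2 was its highest and untreated 2 its lowest array, and the groups overlapped. The SAHA mean was 7.22 ± 0.42 (SD, n = 3) and that of the controls 7.18 ± 0.29 (SD, n = 5). The difference was 0.05 with a standard error of 0.20 (adjusted p = 0.938), a fold of 1.03 with a 95% interval from 0.758 to 1.41.

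MT1X, an MT1 isoform whose promoter is given above, measured 4.89, 4.07 and 4.89 on untreated arrays, 4.98 and 4.78 on EtOH arrays and 4.32, 5.39 and 4.51 on SAHA arrays, in the same order. Its highest value was SAHA 2 and its lowest untreated 2. MT1A, another isoform of the cluster, measured 5.93, 5.42 and 5.95 untreated, 6.0 and 5.84 in EtOH and 5.42, 6.14 and 5.56 with SAHA. SAHA 2 was again the highest array, with untreated 2 and SAHA 1 both at 5.42. MT1E measured 3.40, 2.92 and 3.93 untreated, 3.83 and 3.40 in EtOH and 3.46, 4.22 and 3.37 with SAHA. Here too SAHA 2 was highest and untreated 2 lowest.

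The isoform MT1G measured 4.74, 4.10 and 4.81 untreated, 5.06 and 4.32 in EtOH and 3.72, 4.91 and 4.39 with SAHA. EtOH 1 was its highest array and SAHA 1 its lowest. MT1F measured 1.25, 1.03 and 1.71 untreated, 1.82 and 1.41 in EtOH and 1.11, 1.76 and 1.06 with SAHA. Its highest array was EtOH 1, just above SAHA 2. MT1H had the most promoter cores of the 3 genes with sequences at hand. It measured 2.22, 1.70 and 2.40 untreated, 1.99 and 1.72 in EtOH and 1.76, 2.28 and 1.85 with SAHA. Untreated 3 was its highest and untreated 2 its lowest array. MT1M measured 3.39, 2.33 and 2.85 untreated, 2.90 and 3.44 in EtOH and 2.51, 3.54 and 2.51 with SAHA, so that SAHA 2 was highest and the other SAHA arrays lay near the bottom. Groups overlapped in all of these MT1 genes.

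Among the MT1 genes the difference between SAHA and combined controls ran from -0.26 in MT1G (standard error 0.27, adjusted p = 0.683) to 0.19 in MT1E (standard error 0.25, adjusted p = 0.765). The other MT1 genes lay between, with MT1F at -0.13, MT1M at -0.13, MT1A at -0.12, MT1H at -0.04 and MT1X at 0.02, and none of their adjusted p-values was below 0.793. The 95% interval of the difference lay within a fold of 1.5 either way in 4 of the 9 genes, MT1A, MT1H, MT2A and MT3, and with the replicate number as a block in 3, MT3 no longer among them. In the remaining 5 a fold of 1.5 in at least 1 direction was inside the interval, and the data cannot set a tighter bound.

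MT3 measured 0.45, 0.67 and 0.33 on untreated arrays, 0.75 and 0.63 on EtOH arrays and 0.15, 0.23 and 0.39 on SAHA arrays. Both EtOH arrays and 2 of the 3 untreated arrays lay above every SAHA array. The SAHA mean of 0.25 ± 0.12 (SD, n = 3) stood beside 0.57 ± 0.17 (SD, n = 5) in the controls. The difference was -0.31 with a 95% interval from -0.57 to -0.06, and it did not pass after adjustment (adjusted p = 0.233). With the replicate number as a block the difference was -0.32 with an interval from -0.66 to 0.014, which includes 0. MT3 was the gene of the 9 that met an unadjusted p under 0.05, beside 15.4% of all genes. With the block 0 of the 9 did, and the share of all genes in that fit is not given here. MT3 was also the only one of the 9 whose mean lay below the upper quartile of gene means. On SAHA 1 and SAHA 2 it lay below the array median of all genes, 0.26 and 0.27. On the other arrays it lay above that median. Over all genes the SAHA arrays lay wholly beyond the controls in 10.5%, while this held for 0 of the 9 metallothionein genes.

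The 3 groups were also compared in pairs. EtOH has arrays of replicates 1 and 3 only, and this fit does not use the replicate number. These contrasts therefore cannot separate the solvent from what differs in replicate 2. For this fit the share of all genes at an unadjusted p under 0.05 is not given here. SAHA against EtOH called 0 of the 9, with 0.103% of all genes called. Differences there were negative in 7 of 9, with a median of -0.21, and that of MT3 was -0.44 with a 95% interval from -0.74 to -0.14 (adjusted p = 0.240). MT3 was again the 1 gene at an unadjusted p under 0.05. SAHA against untreated called 0 of the 9, with 0.789% of all genes called, and none met an unadjusted p under 0.05. The median difference was -0.01. EtOH against untreated called 0 of the 9 and 0% of all genes, with no metallothionein gene at an unadjusted p under 0.05. The median difference was 0.21, and MT1H alone was negative, at -0.25. Untreated 2, the lowest array in 6 of the 9 genes, enters these differences with no EtOH array of its number. Within replicate 1 EtOH lay above untreated in 7 of the 9 genes, and within replicate 3 below it in 7. For MT1X the group difference was 0.26, while within replicates 1 and 3 it was 0.08 and -0.11. These pairwise comparisons share arrays, so that an EtOH mean above the untreated one enters both contrasts that use EtOH.

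**Figure D2:**
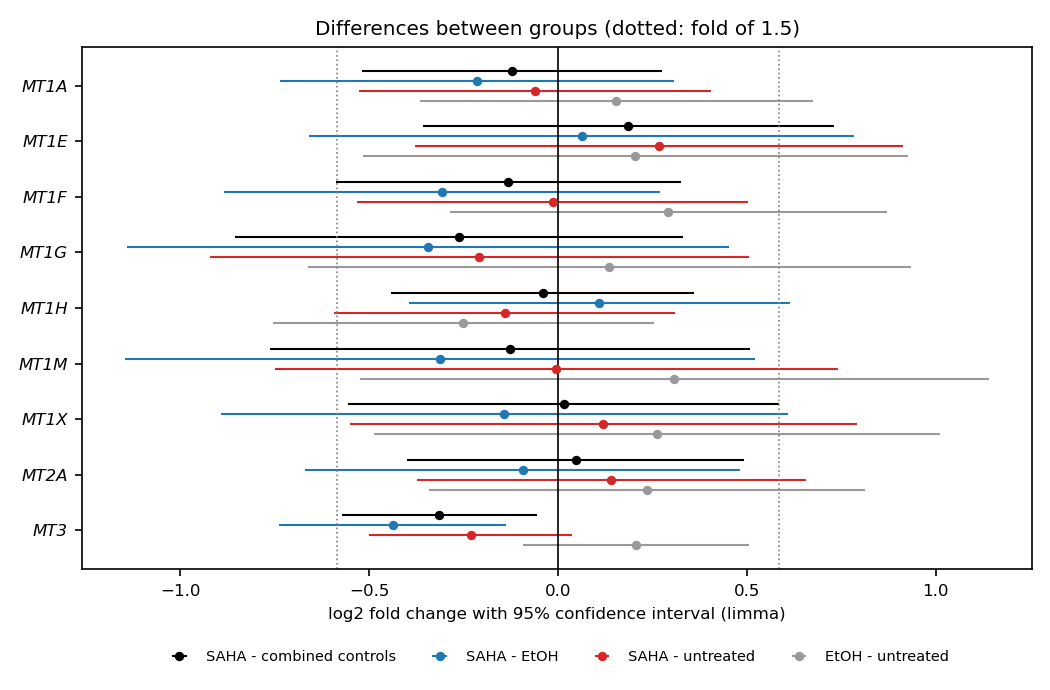
Log2 fold change with its 95% confidence interval from limma (horizontal axis) for each of the 9 genes and 4 group comparisons, with dotted lines at a fold of 1.5. Intervals hold 0 in 8 of 9 genes for SAHA against the combined controls, and that of MT3 runs from -0.57 to -0.06.

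The group means hid opposite differences within the replicate numbers. A difference taken within a number, SAHA minus the mean of the controls of that number, is not altered by the centring. In replicate 1 all 9 genes were lower with SAHA, in replicate 3 all 9 were lower, and in replicate 2 all but MT3 were higher. Of all genes 58.1% were lower in replicate 1, 53.1% in replicate 2 and 52.9% in replicate 3. MT1X differed by -0.62 in replicate 1, 1.32 in replicate 2 and -0.33 in replicate 3. For MT2A the values were -0.25, 1.02 and -0.38, for MT1E -0.15, 1.30 and -0.30, and for MT1M -0.63, 1.21 and -0.63. In replicate 2 the SAHA array thus stood 2.50-fold above its control for MT1X and 2.02-fold for MT2A. The most negative difference in replicate 1 was that of MT1G, at -1.18, with 0.81 in replicate 2 and -0.17 in replicate 3. MT1A gave -0.55, 0.73 and -0.34, MT1F gave -0.42, 0.73 and -0.50, and MT1H gave -0.34, 0.59 and -0.22. In MT3 the signs did not split, at -0.45, -0.45 and -0.10.

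Differences of this size in replicate 2 were uncommon among all genes. The 8 genes other than MT3 differed by 0.59 to 1.32 in replicate 2, all above the 95th percentile of all genes, 0.54. These 8 lay above the upper quartile of gene means, and the percentiles were not taken among genes at a like level. In replicate 1, 1 of the 9 was below the 5th percentile of -0.65, and in replicate 3, 2 were below that of -0.47. The signs alone were less unusual. Of all genes 14.1% were lower in replicates 1 and 3 and higher in replicate 2, as were 8 of the 9 metallothionein genes. The same 8 kept these signs after quantile normalization and after median centring. The only control in replicate 2 is 1 untreated array, while replicates 1 and 3 each have an EtOH array as well. The numbers 1, 2 and 3 also carry the labels p6, p10 and p16, which the labels do not spell out, and the part of what they mark in these differences was not tested.

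**Figure D3:**
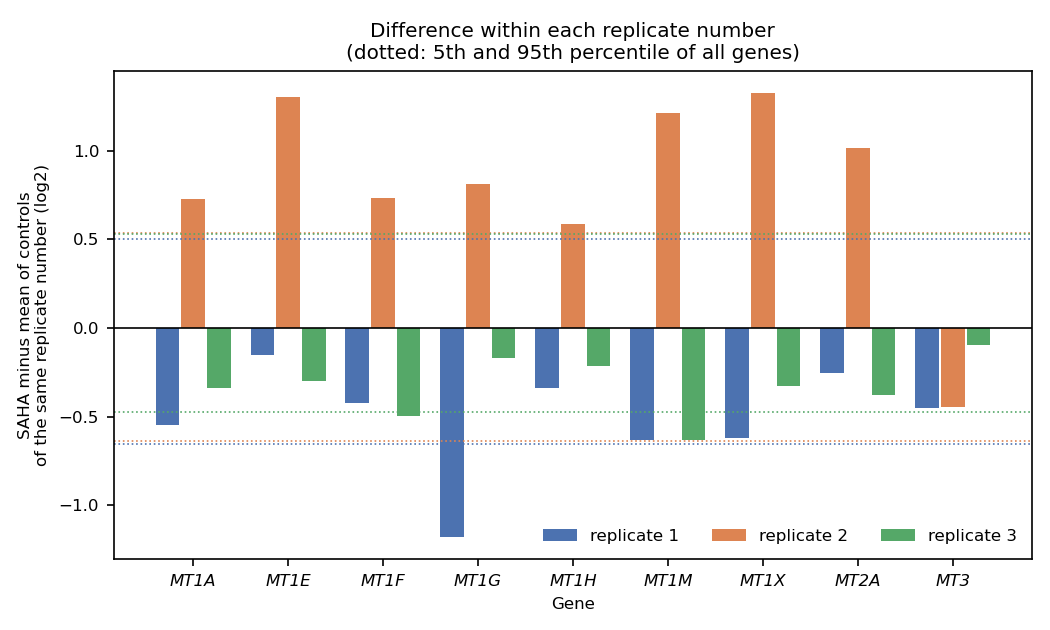
SAHA minus the mean of the controls of the same replicate number, in log2 units (vertical axis), for each of the 9 genes, with 1 bar for each replicate number and dotted lines at the 5th and 95th percentiles of all genes. The bars of replicate 2 reach between 0.59 and 1.32 in all genes but MT3, while those of replicates 1 and 3 lie below 0.

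For scale, 2 genes called higher with SAHA are given beside these. CDKN1A, which encodes the cell cycle inhibitor p21 and is a well-known gene raised by HDAC inhibitors, differed by 1.98, 1.94 and 2.56 in replicates 1, 2 and 3. TGM2, encoding a transglutaminase that crosslinks proteins, differed by 2.65, 3.56 and 3.87. Both were named after their values were known, and being called on these arrays favours 1 sign in every replicate, as all 136 called genes had, so nothing is read from their signs.

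With both arrays of replicate number 2 left out, a setting chosen because the differences in that replicate had been seen, 0 of the 9 genes were called, with 0.211% of all genes called. All 9 differences were then negative, with a median of -0.44 beside -0.04 over all genes, and 6 of the 9 were lower at an unadjusted p under 0.05, against 7.39% of all genes. These values restate the differences in replicates 1 and 3 that prompted the setting, and they give no separate support to them. The smallest adjusted p-values were 0.189 for MT1X at -0.47 and 0.195 for MT1A at -0.44. In MT1M the difference was -0.63 and in MT1G -0.67, with adjusted p = 0.250 and 0.311.

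The controls differed among themselves as well. EtOH lay above untreated in replicate 1 for 7 of the 9 genes and below it in replicate 3 for 7 of the 9. MT1E differed by 0.44 in replicate 1 and by -0.52 in replicate 3. MT1G differed by 0.31 and -0.49, and MT1F by 0.58 and -0.29. MT1M went the opposite way, at -0.50 and 0.58. MT3 was the same in both, at 0.30 and 0.30. The median SD over the 5 control arrays was 0.327 for the 9 genes and 0.172 for all genes. Over the 3 SAHA arrays the medians were 0.416 and 0.150. Each of the 8 genes other than MT3 had a control SD above that of at least 75.1% of genes and a SAHA SD above that of at least 86.3%. Because the centring makes untreated 2 mirror SAHA 2, the control SD also holds the difference within replicate 2. In MT1X the control arrays other than untreated 2 lay between 4.78 and 4.98. These 8 genes lay above the upper quartile of gene means, and their spread was not compared with that of genes at a like level.

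The MT1 and MT2A genes varied together across the 8 arrays. The 28 pairs among the 8 genes without MT3 had a median Pearson correlation of 0.807, from 0.493 to 0.968. With each group's mean taken out the median was 0.888. Closest were MT1A and MT1X at 0.968, followed by MT1E and MT2A at 0.958. MT3 had a median correlation of -0.0901 with the other 8, from -0.389 to 0.225. These correlations are descriptions over 8 arrays that share groups and the replicate centring.

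**Figure D4:**
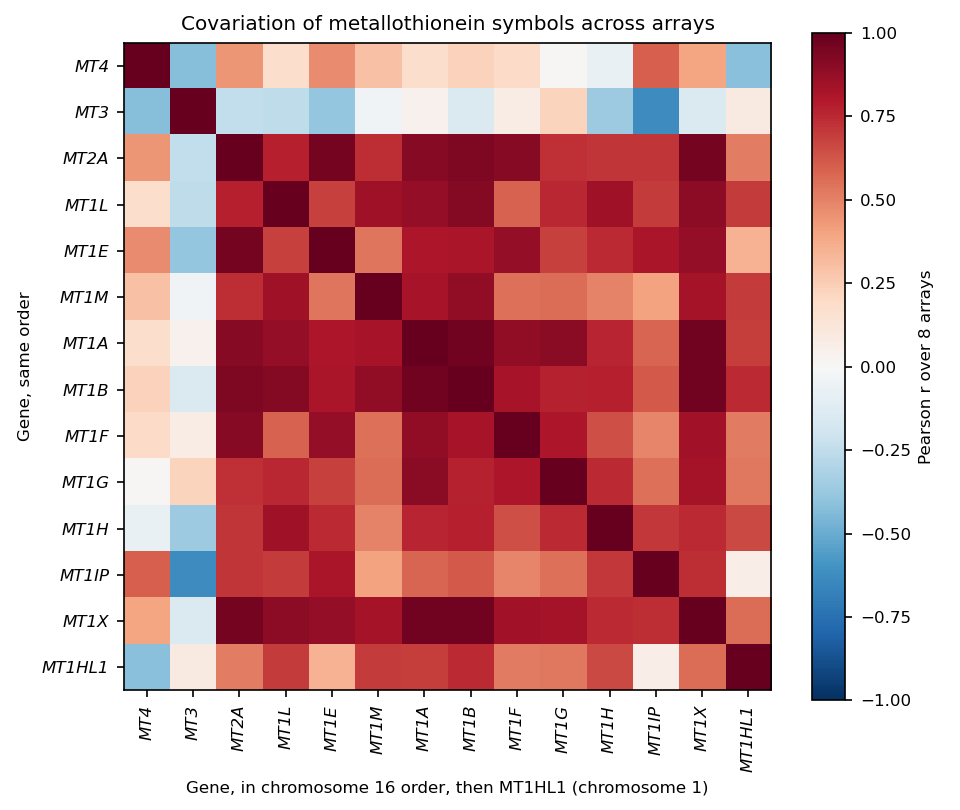
Pearson correlation over 8 arrays (colour) between metallothionein symbols, in their order along chromosome 16 with MT1HL1 of chromosome 1 last. MT1A, MT1B and MT1X share the deepest red, with values of 0.964 to 0.968, and the stripe of MT3 is pale or blue, from -0.626 with MT1IP to 0.225 with MT1G.

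The other metallothionein symbols on the array were not called either. MT1B, a further MT1 isoform of the cluster, differed by -0.52, 1.08 and -0.56 within replicates 1, 2 and 3, and correlated at 0.962 with the mean of the 9 genes. MT1L, a transcribed pseudogene between MT2A and MT1E, gave -0.64, 1.07 and -0.25 and correlated at 0.861. MT1IP, also a pseudogene, gave -0.06, 0.80 and 0.22. MT1HL1, the copy on chromosome 1, gave -0.42, 0.21 and -0.70, with a difference from the combined controls of -0.34 (adjusted p = 0.318). MT4, known from squamous epithelium, measured 0.18, 0.26 and 0.19 on the SAHA arrays and -0.08 to 0.13 on the controls. On every array it lay below the median of all genes. Its groups did not overlap, as in 10.5% of all genes, and its difference of 0.18 did not pass (adjusted p = 0.361).

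Genes flanking the cluster were not called. Of 12 genes measured within 500 kb of the run, 5 before and 7 after it, none passed the test. None met an unadjusted p under 0.05, beside 15.4% of all genes. The largest differences were in CPNE2, a copine, at -0.28 (adjusted p = 0.402) and in HERPUD1, which acts in the breakdown of misfolded proteins of the endoplasmic reticulum, at -0.21 (adjusted p = 0.457). Of the 12, 0 were lower in replicates 1 and 3 and higher in replicate 2, a count too small to set against the 14.1% of all genes with these signs. Their correlations with the mean of the 9 genes reached from -0.905 to 0.263. The 5 genes whose pattern was most like that mean lay elsewhere, NENF at 0.995, ACADVL at 0.993, CDKN2B at 0.988, GNG13 at 0.982 and MCEE at 0.979. NENF encodes neudesin, a secreted protein, and ACADVL an enzyme of fatty acid oxidation. CDKN2B encodes the cell cycle inhibitor p15, GNG13 a subunit of G proteins and MCEE an enzyme of propionate breakdown. None of these was called. Of 18494 genes outside the family, 139 correlated above 0.9 and 525 above 0.8, 0.752% and 2.84%.

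The factors that act on metallothionein promoters were read next. None of 7 listed was called with SAHA, and 1 met an unadjusted p under 0.05, beside 15.4% of all genes. MTF1, the metal-responsive factor itself, measured 1.97, 2.26 and 1.92 untreated, 2.31 and 2.26 in EtOH and 2.33, 2.14 and 2.42 with SAHA. Its groups overlapped, and its difference was 0.15 with a 95% interval from -0.12 to 0.42 (adjusted p = 0.591). Within replicates 1, 2 and 3 it differed by 0.19, -0.12 and 0.33. NR3C1, the glucocorticoid receptor, measured 4.86, 4.55 and 4.70 with SAHA, against 3.80 to 4.40 in the controls. The groups did not overlap, as in 10.5% of all genes. The difference of 0.56 with a standard error of 0.13 did not pass (limma, adjusted p = 0.0878). Its within-replicate differences were 0.76, 0.40 and 0.52, all of 1 sign. STAT3, which carries cytokine signals to the nucleus, differed by -0.27 (adjusted p = 0.586).

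Zinc transporters set the metal that metallothioneins buffer, with SLC30 proteins moving zinc out of the cytosol and SLC39 proteins moving it in. None of 24 measured was called. At an unadjusted p under 0.05, 1 was higher and 4 lower, beside 15.4% of all genes, and the median difference was -0.01 beside -0.03 over all genes. The largest differences were in the importers SLC39A5, at -0.70 (adjusted p = 0.150), and SLC39A11, at -0.50 (adjusted p = 0.278). SLC30A1, the zinc exporter of the cell membrane and a known MTF1 target, was singled out after its values were seen. It measured 2.26, 2.40 and 2.16 with SAHA and 1.58 to 2.04 in the controls, with no overlap. The difference was 0.46 with a standard error of 0.11 (adjusted p = 0.0952). Within replicates it was 0.41, 0.82 and 0.26, positive in each. Groups did not overlap in 10.5% of all genes, and 2 other transporters without overlap went the other way. SLC30A3, named here for that reason, differed by -0.44 (adjusted p = 0.0986) and by -0.36, -0.39 and -0.58 within replicates 1, 2 and 3. SLC39A5 differed by -0.26, -0.38 and -1.43 within them. The signs of the MT1 genes, lower in replicates 1 and 3 and higher in 2, were found in 3 of the 24 transporters, near the 14.1% of all genes.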

How the data were processed

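Total RNA was measured on Clariom S arrays. The authors normalized the signals by RMA in the oligo package, left out 1 EtOH array and deposited log2 values, 1 for each of 18508 genes and array. The files show that each gene was centred on the replicate number, a step not named in the methods. The values run from -0.83 to 9.96, and their offset is unknown, so a gene's level was read only by its place among all genes. Scanner files were not used here, and the number of arrays limits the precision.

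The log2 values were fitted as deposited, using limma 3.58.1 under R 4.3.3. Following the study's methods, SAHA was compared with EtOH and untreated combined, with 6 residual degrees of freedom. A fit with 3 groups gave the pairwise contrasts. Adjusted p-values are limma's, by Benjamini-Hochberg over all genes. The code was tested on simulated data. The genes and lists were chosen with earlier results of these data known. Named are the 9 genes, the other metallothionein symbols, MTF1, from each list without a call the 2 genes with the largest difference, and the 5 genes most like the mean. Exceptions are marked where they stand. Alternatives were quantile normalization, median centring, dim genes left out, an intensity trend, robust variances and array weights. Further ones were the replicate block, either control group alone, equal control weights, an unpaired t-test and each array left out.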

Additional observations from a re-analysis of the deposited data

Results flagged for a closer look

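In both genes named here the untreated array of replicate 2 lay far below the other 4 control arrays. MT1A measured 5.42 log2 units on it and 5.84 on the next lowest control array. MT1X measured 4.07 on it and 4.78 on the next lowest. The gap to the nearest control made up 0.716 of the range of the 5 control arrays in MT1A and 0.787 in MT1X, above the critical value of 0.71. By chance about 5% of groups of independent values exceed this value. The centring ties the arrays of a replicate number to each other, so that rate need not hold here. These genes correlate at 0.968 across arrays, so they do not count as separate cases. Because values were centred on the replicate number, a low untreated array and a high SAHA array of replicate 2 cannot be told apart.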

How the results depend on the processing

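No metallothionein gene was called higher or lower with SAHA under 20 alternatives, and none between single groups under 15. Of the zinc transporters, copper genes, promoter factors, glucocorticoid-induced genes and neighbours none was called under 19, which do not include leaving out replicate number 2. The marker lists were not run under alternatives. The 9 genes gave 180 single values, of which 151 kept their sign and 29 changed it. Their adjusted p-values ran from 0.117 to 0.998 (limma or an unpaired t-test). Array weights gave 2.09 to untreated 2 and 1.62 to SAHA 2. The values had been centred on the replicate number, and replicate 2 has fewer arrays than the others. The weights therefore need not reflect array quality. With them differences became positive in MT1A (0.079), MT1F (0.065), MT1G (0.013), MT1H (0.11) and MT1M (0.18). Quantile normalization gave 0.014 in MT1H, -0.0083 in MT1X and -0.044 in MT2A, median centring 0.0017 in MT1H, and equal control weights -0.011 in MT1X. With EtOH alone as control the values were 0.11 in MT1H, -0.14 in MT1X and -0.094 in MT2A. Without both arrays of replicate number 2 they were -0.23 in MT1E, -0.47 in MT1X and -0.31 in MT2A. With each array left out in turn the range was -0.34 to 0.023 in MT1A, -0.081 to 0.34 in MT1E, -0.55 to 0.048 in MT1G, -0.20 to 0.060 in MT1H, -0.47 to 0.044 in MT1M, -0.31 to 0.23 in MT1X and -0.19 to 0.19 in MT2A. Each lowest value came without SAHA 2, and the highest without SAHA 1 in MT1A, MT1G, MT1H, MT1M and MT1X and without SAHA 3 in MT1E and MT2A. The cause was not tested.

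The replicate block left 0 of the 9 called, and it changed no call among these genes. MT3 stood at -0.32 (limma, adjusted p = 0.596), and with the block it no longer met the unadjusted threshold of 0.05. The block uses 4 residual degrees of freedom. Whether the numbers pair the samples could not be checked by correlation, since the centring itself lowers it. Over all genes the calls, 81 higher and 55 lower, became 36 and 14 with the block, 121 and 112 with array weights, 22 and 16 with EtOH alone, 5 and 4 by the t-test, 48 and 23 without untreated 2, 35 and 14 without SAHA 1, 20 and 10 without SAHA 3, and 30 and 9 without both arrays of replicate number 2, and median centring gave 99 and 37.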

Other observations

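Copper is carried by metallothioneins too. None of 15 measured genes of copper handling, of 16 listed, was called with SAHA by limma or by an unpaired t-test. At an unadjusted p under 0.05, 3 were higher and 2 lower, with 15.4% of all genes at that threshold, and the median difference was -0.11 on the log2 scale, beside -0.03 over all genes. The largest differences were in SLC31A2, a copper transporter of internal membranes, at 0.41 (limma, adjusted p = 0.212), and in SOD1, the copper and zinc superoxide dismutase, at -0.33 (limma, adjusted p = 0.260).

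Of 9 listed genes that glucocorticoids raise, 7 were measured and none was called by limma or by an unpaired t-test. By limma 1 met an unadjusted p under 0.05, beside 15.4% of all genes. DUSP1, a phosphatase that switches off MAP kinases, differed by 0.43 (limma, adjusted p = 0.311) and by 0.18, 0.27 and 0.82 within replicates 1, 2 and 3. KLF9, a zinc finger transcription factor, differed by -0.23 (limma, adjusted p = 0.607). Its differences within the replicates were -0.26, 0.44 and -0.72.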
